A study of Mus musculus with 8 samples.

Results

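The 3′UTR is the stretch of an mRNA behind the stop codon, where AU-rich elements, Pumilio sites, microRNA sites and the polyadenylation signal lie. N6-methyladenosine (m6A) is written on mRNA by the METTL3–METTL14 complex, mostly within the DRACH sequence (D being A, G or T in DNA letters, R being A or G, and H being A, C or T). It is densest around stop codons and in long last exons. Reader proteins bind it there, among them YTHDF2, which brings the CCR4–NOT deadenylase to the transcript and speeds its decay. The peaks described here are those farther down the 3′UTR than the cluster at the stop codon.

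The m6A peaks came from methylated RNA immunoprecipitation sequencing of E14 cells, a line of mouse ESCs (embryonic stem cells), in which antibody-enriched RNA fragments (IP) are set against the input RNA. Per the methods of the study, all cells carried a doxycycline (Dox)-inducible Dux transgene and a tdTomato reporter driven by the Mervl promoter, and Dux switches on genes of the 2-cell embryo (2C genes) in part of the culture. Cells were given Dox, or DMSO as the solvent control, for 24 h, and 8 libraries were made in 4 groups of 2 replicates (IP and input of each treatment). The peaks were deposited as 1 list per treatment, so no value below has a replicate error, no test between treatments was possible, and all intervals are 95% intervals of counting error.

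A peak was counted as distal when its middle exon-block base lay in the 3′UTR more than 200 transcript nt downstream of the first base of the stop codon, on the gene's GENCODE vM21 transcript with the longest coding sequence (mm10, same strand). This rule found 2433 distal 3′UTR peaks among the 18895 peaks of the DMSO list, in 1613 genes, and 1568 among the 13001 peaks of the Dox list, in 1111 genes. They made up 13.6% (13.1 to 14.1) of the DMSO peaks that lay on a chosen transcript and 12.7% (12.1 to 13.3) of the Dox peaks. The label held in the annotation, since the middle base lay in the last exon for 99.3% of the DMSO and 98.9% of the Dox members and was coding in another transcript of the same gene for 10 and 9. Taking the longest transcript of the gene kept 98.4% and 99.0% of them distal. Each peak also had a score, which was taken from its values to be the −log10 p given by the authors' peak caller and was ranked within its list only.

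The sites below are examples and not a sample of the distal peaks, of which 55.1% in DMSO and 57.5% in Dox held GGAC. Each is a run of 21 nt on the mRNA strand (GRCm38/mm10, DNA letters) centred on the A of a DRACH motif that lies in a named peak. The motif is in capitals and is the one closest to the middle of the peak, GGAC forms being preferred. The first 5 lie in peaks of both lists, except that the Nanog motif lies in the DMSO peak and just past the 3′ end of the Dox peak. They were chosen to span genes of pluripotency, adhesion and microRNA action.
Nanog, chr6:122714586-122714606, plus strand: tgccagctGGACTagtttaaa
Klf5, chr14:99314582-99314602, plus strand: taaccaaaGGACAgaaaccac
Cdh1, chr8:106669441-106669461, plus strand: aaacttggGGACAgcaacatc
Ago2, chr15:73105570-73105590, minus strand: gtgcccgaGGACCtgaccgtg
Trim71, chr9:114508311-114508331, minus strand: agaccacgGGACTaatcgggt
The next 4 lie in peaks that the Dox list lacked. Hjurp had a high score among these, and the peaks of Tet2 and Tfcp2l1 lay far from the stop codon.
Hjurp, chr1:88264280-88264300, minus strand: gtgagagtGGACTcgtgtcta
Zfp36l1, chr12:80108097-80108117, minus strand: cacaggtaGGACTgagaatgt
Tet2, chr3:133464555-133464575, minus strand: acagctttGGACTgcagctgg
Tfcp2l1, chr1:118683362-118683382, plus strand: gccagtctGGACTattaaaag
The following 2 lie in peaks that the DMSO list lacked.
Gm4981, chr10:58235255-58235275, minus strand: tgctacagGGACAgatggaga
Tmem92, chr11:94778243-94778263, minus strand: aaacacagGGACTacgtttcc
The last one is from a high-ranking peak of both lists with DRACH motifs but no GGAC.
Ago2, chr15:73103848-73103868, minus strand: gcaatgcaAAACTctagagag

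GGAC, the core of the commonest DRACH forms, was found in the distal peaks more often than in the 3′UTR around them. It was present in 1339 of 2430 DMSO peaks with sequence (55.1%, 53.1 to 57.1), while 38.0% of all windows of the same length in the same distal 3′UTRs held it. In the Dox list it was present in 901 of 1568 peaks (57.5%, 55.0 to 59.9), against 37.7% of windows. Among peaks of 75 to 150 nt the shares were 56.4% against 32.8% and 60.3% against 33.4%. All DRACH forms together were in 86.2% of DMSO and 88.1% of Dox members, beside 80.0% of windows in both lists.

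The DRACH forms were not alike. Inside DMSO distal peaks GGACT occurred 2.67 times as often per kb as in the rest of the same distal 3′UTRs, GGACA 2.31 times and GGACC 2.05 times. GAACT and AGACT followed with 1.73 and 1.68 times, AAACA was even with 0.980 times, and TAACA was scarcer inside peaks with 0.593 times. The Dox list gave the same leading forms, with 3.02 for GGACT, 2.53 for GGACA and 2.19 for GGACC, and TAACA was again at the other end with 0.504. Peaks also had more G and C than their surroundings (51.4% against 45.2% in DMSO, 52.1% against 45.1% in Dox), and the part of base composition in these ratios was not tested.

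The motif sat in the middle of the peaks. In the 25 nt before the middle base GGAC started 7.38 times per kb in DMSO and 8.08 times in Dox, and between 200 and 224 nt behind it 3.26 and 2.70 times. At 75 to 150 nt, distal peaks held GGAC at shares whose intervals overlapped those of peaks within 200 nt of the stop codon (55.7% in DMSO, 56.2% in Dox) and more often than coding sequence peaks (46.1% and 47.7%), which have another base composition.

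**Figure D1:**
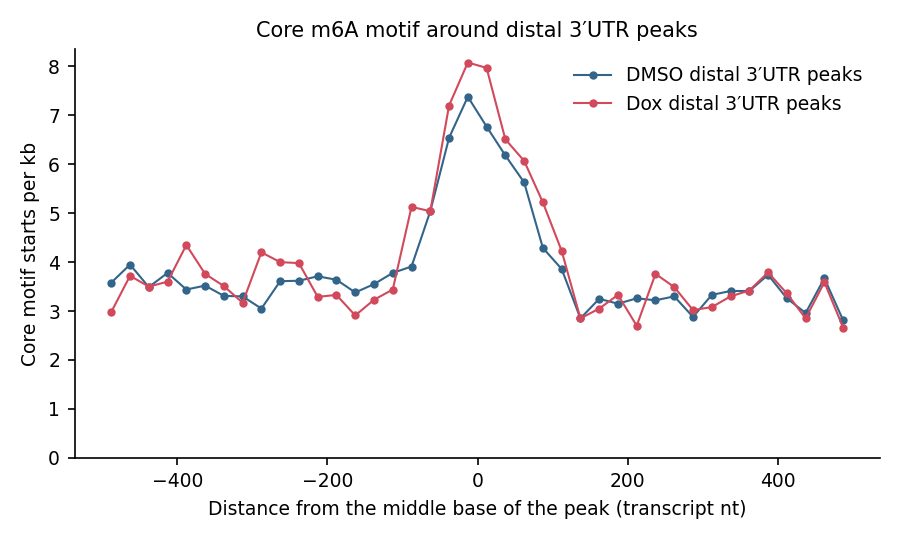
Starts of the core motif GGAC per kb (y axis) in bins of 25 nt by distance from the middle base of distal 3′UTR peaks (x axis, transcript nt), for the DMSO list (blue) and the Dox list (red). Both lines are highest beside the middle of the peak, at 7.38 in DMSO and 8.08 in Dox.

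Elements known from 3′UTRs were less common inside distal peaks than in windows of the same length, on the strand of the peak. The AU-rich pentamer ATTTA was in 9.67% of DMSO members against 15.2% of windows and in 7.84% of Dox members against 14.3%. The polyadenylation signal AATAAA was in 5.31% against 7.80% and 3.95% against 7.69%, and its variant ATTAAA in 3.09% against 5.10% and 2.55% against 4.80%. The Pumilio element TGTANATA was in 1.15% of the members of each list, against 2.69% and 2.57% of windows. AGCACTT, the target of a microRNA seed family abundant in ESCs, was in 1.52% of DMSO members (1.11 to 2.09) against 1.55% of windows and in 1.08% of Dox members (0.678 to 1.73) against 1.38%, which did not differ beyond the counting interval. The first 4 of these elements are rich in A and T, and the part of base composition in these values was not tested.

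Distal 3′UTRs are long, and peaks were thin in them. The lengths used are those of the annotated transcript, and which 3′UTR ends these cells use was not analysed. Over the transcripts with a peak, the DMSO list had 0.305 peaks per kb of distal 3′UTR (0.293 to 0.317) and 1.80 per kb (1.75 to 1.86) within 200 nt of the stop codon, a ratio of 5.91. The Dox list had 0.244 (0.232 to 0.256) and 1.70 (1.64 to 1.76), a ratio of 6.97. Distal 3′UTRs were also poorer in peaks than the coding sequence, which had 0.983 and 0.820 per kb. Density fell steadily with distance rather than at the 200 nt limit. Between 200 and 300 nt it was 0.987 per kb in DMSO and fell to 0.572 between 400 and 500 nt and 0.226 between 1000 and 1100 nt. The same bins of the Dox list had 0.880, 0.516 and 0.171.

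**Figure D2:**
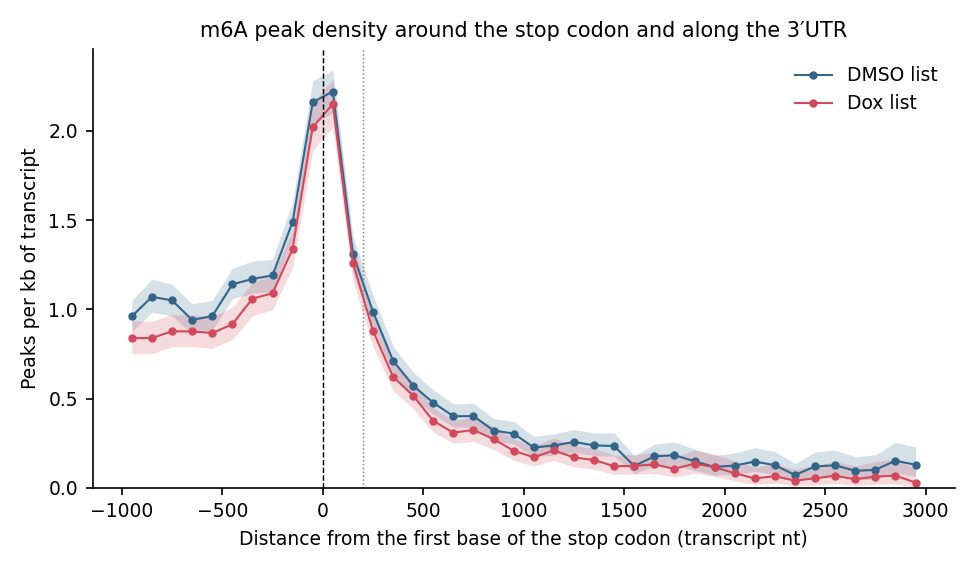
Peaks per kb of transcript (y axis) in bins of 100 nt by distance of the middle base from the first base of the stop codon (x axis, transcript nt; dashed line, stop codon; dotted line, the 200 nt limit), with shaded 95% counting intervals. Density is highest at the stop codon, near 2.2 in DMSO, and falls without a step at 200 nt to 0.226 in DMSO and 0.171 in Dox between 1000 and 1100 nt.

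A distal DMSO peak lay at a median of 572 nt from the stop codon (quartiles 331 and 1090) and a distal Dox peak at 512.5 nt (312 and 958). Of the DMSO members 27.5% (25.8 to 29.3) lay over 1000 nt and 9.12% (8.04 to 10.3) over 2000 nt away, while in Dox it was 23.3% (21.3 to 25.5) and 6.44% (5.33 to 7.77). The first 20% of the length of the distal 3′UTR held 40% of DMSO and 42.8% of Dox members, and the last 20% held 8.43% and 7.78%. The farthest Dox peaks were 3 in Aak1, a kinase of clathrin-mediated endocytosis, at 9409, 9709 and 10396 nt in a 3′UTR of 15925 nt. The 3 farthest DMSO peaks lay 40281 to 52981 nt away in D10Wsu102e, whose annotated 3′UTR of 122583 nt was the longest with a member. All 3 had their middle base in a repeat and none was met by a Dox peak.

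At the limit itself score and overlap were close on either side, while median length and motif share were lower beyond it. Longer peaks hold a short motif more often, and length was not matched here. Neighbouring classes away from the limit were not compared in this way, so a step at the limit is not shown. In DMSO, 300 peaks lay 151 to 200 nt from the stop codon, with a median score of 11.5 and 61.3% overlapped by a Dox peak, and 273 lay 201 to 250 nt away, with 11.3 and 57.9%. GGAC was in 67.0% of the first and 58.2% of the second, and the median length was 150 and 125 nt. In Dox there were 232 with 94.4% overlapped and 190 with 93.7%, with median scores of 11.3 on both sides and GGAC in 68.1% and 58.9%. The nearest members were peaks of Trim33 and Insig1 in DMSO (scores 12.2 and 12.8) and of Xylt2 and Pom121 in Dox (10.2 and 13), each at 201 nt. The nearest peaks on the other side were those of Pitrm1 and Adap1 in DMSO (12.7 and 10.4) and of Ppp4r3a and Keap1 in Dox (13.2 and 11.6), each at 200 nt.

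Distal peaks were short, and few were spliced. Their median length was 125 nt in both lists (quartiles 50 and 200), and 17.8% of DMSO and 17.4% of Dox members were a single step of 25 nt. The share was close to this among coding sequence peaks (16.3% and 16.7%), with overlapping intervals. It was lower within 200 nt of the stop codon in both lists. Of the distal peaks 1.32% in DMSO and 1.02% in Dox were spliced. Within 200 nt of the stop codon it was 21.7% and 17.3%, and among coding sequence peaks 34.7% and 28.1%. The low distal share follows from the choice of members, since nearly all have their middle base in the last exon. It is therefore not a trait of the peaks themselves. Repeats were under-represented, the middle base lying in a soft-masked repeat for 8.88% of DMSO and 7.53% of Dox members, although repeats made up 17.3% and 17.4% of the bases of these distal 3′UTRs. A near-identical locus elsewhere in the genome (98% identity or more across 90% or more of the peak) existed for 187 DMSO and 133 Dox members, and the reads behind them cannot be placed with certainty.

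Distal peaks ranked lower in their list than other peaks. In the DMSO list 41.4% of them (39.4 to 43.4) scored above the median of all peaks, against 51.5% of peaks within 200 nt of the stop codon, a difference of -10.1 points (-12.5 to -7.57), and 51.6% of coding sequence peaks. In the Dox list it was 42.9% (40.5 to 45.4) against 52.1%, a difference of -9.18 points (-12.2 to -6.15), and 50.5%. Within genes that had both kinds, the best distal peak outranked the best peak at the stop codon in 44.1% of 952 genes (41.0 to 47.3) in DMSO and 43.9% of 597 (40 to 47.9) in Dox. For 331 of the 1613 DMSO genes (20.5%) and 306 of the 1111 Dox genes (27.5%), the distal 3′UTR was the only place with a peak.

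The 10 best-scoring peaks of each list lay near the annotated end of the transcript more often than those of lower rank. Of the 10 best-scoring DMSO members 5 lay within 50 nt of that end, and 1 held GGAC (1.79% to 40.4%). This interval includes the share of windows of the same length, so a lack of the motif is not shown. It lies below the interval of ranks 26 to 100 given below. The peaks of those ranks were longer (median 200 against 75 nt), and length was not matched. The highest score of both lists, 93.7 in DMSO and 59.7 in Dox, was that of a 25-nt spliced peak 7 nt from the end of Rccd1, with 20 of its bases on the transcript, in a repeat and with another near-identical locus. Next in DMSO came Rps19, a ribosomal protein gene (53.4; 43 nt from the end, and coding in another transcript of the gene), Snapc3, of the small nuclear RNA activating complex (33.0), Actb, the beta-actin gene (32.0), and Atg4d, an autophagy protease (30.5). Ube2s, a ubiquitin-conjugating enzyme of the anaphase-promoting complex, followed (30.4, 12 nt from the end). Larp1, a binder of mRNAs for the translation machinery (25.9), and the glycolytic gene Eno1 (24.7, 29 nt from the end) came after it. The Eno1 peak had 3 near-identical loci elsewhere. The kinetochore gene Zwilch (23.9) and the S6 kinase gene Rps6kb2 (23.7, 12 nt from the end) completed the 10, Zwilch being the one with GGAC.

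In the Dox list, 4 of the 10 best held GGAC (16.8% to 68.7%, windows 31.3%) and 3 lay within 50 nt of the end. After Rccd1 these included Prpf39, a splicing factor (35.3), Ube2s (30.6), Rps19 (24.4), the Myb family factor Mybl2 (22.9), the polyamine enzyme gene Amd1 (22.2), the ubiquitin ligase gene Rnf126 (20.9), Paics of purine synthesis (20.6) and Sesn2 of the mTORC1 pathway (20.5). Those of Amd1, Rnf126 and Sesn2 held the motif, and those of Mybl2 and Amd1 had a near-identical locus elsewhere. All 10 of each list were met by a peak of the other. Among unspliced last-exon peaks of at least 75 nt with a single locus, a choice made after the values had been seen, the cadherin gene Cdh1 was in the DMSO top 10 with a peak 847 nt from the stop codon (20.8) that held GGAC and had a Dox partner (13.4). From rank 26 to 100 the share with GGAC was 70.7% in DMSO (59.6 to 79.8; windows 49.0%) and 61.3% in Dox (50 to 71.5; windows 47.4%), and 1 peak of 75 in each list lay within 50 nt of the end.

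DMSO distal peaks were 1.55 times as many as Dox distal peaks (1.46 to 1.65). This was a larger ratio than within 200 nt of the stop codon (1.32, 1.26 to 1.38), and its interval overlapped that of the coding sequence (1.49, 1.44 to 1.53). The lists themselves differ in length, with 18895 DMSO and 13001 Dox peaks at all positions. When only the 13001 top-scoring DMSO peaks were kept, so that both lists were equally long, the distal ratio was 0.953 (0.888 to 1.02). That cut makes the totals of the lists equal beforehand and takes out low scores, where distal peaks are commoner. It therefore cannot tell how far the distal ratio depends on list length. A deeper library gives more peaks. Depth and RNA level per gene were not analysed here, and in bulk RNA fewer cells with a transcript and fewer copies per cell cannot be told apart.

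The ratio grew with distance from the stop codon. In the 200 nt behind the stop codon the DMSO list had 1.28 times as many peaks as the Dox list (1953 and 1522; 1.20 to 1.37). Between 200 and 400 nt it had 1.40 times as many (824 and 587; 1.26 to 1.56) and between 400 and 800 nt 1.51 times (738 and 490; 1.34 to 1.69). Between 800 and 1600 nt it had 1.68 times as many (535 and 319; 1.46 to 1.93) and between 1600 and 3200 nt 2.05 times (269 and 131; 1.67 to 2.53). The last interval does not reach that of the 200 nt behind the stop codon. Both intervals treat the lists as independent counts, although most Dox peaks overlapped a DMSO peak and some genes had several peaks. Beyond 3200 nt, 67 and 41 peaks gave 1.63 (1.11 to 2.40), an interval too wide to place it in this order.

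The order was also seen within genes that had a peak in both lists, where the ratio went from 1.08 (1.01 to 1.16) in the 200 nt behind the stop codon to 1.91 (1.54 to 2.37) between 1600 and 3200 nt. In the 1622 of these 4531 genes whose 3′UTR is over 1600 nt long, the ratio started at 1.08 (0.965 to 1.21). Their value of 1.91 between 1600 and 3200 nt is the same one, from the same 243 and 127 peaks. Only such 3′UTRs can hold a peak there. With equally long lists the ratio went from 0.889 (0.826 to 0.956) to 1.14 (0.900 to 1.44), and these intervals overlap. With peaks outside repeats it went from 1.29 to 2.02, and with genes counted in place of peaks from 1.28 to 1.98. Within score quartiles taken singly it was higher in the last of these classes than in the first but did not increase at every step. From the nearest to the farthest class it was 1.40, 1.40, 1.64, 1.77 and 2.41 in the lowest quartile, 1.28, 1.63, 1.40, 1.58 and 1.62 in the next, 1.13, 1.44, 1.54, 1.53 and 2.14 in the third, and 1.36, 1.09, 1.41, 1.88 and 2.05 in the highest. These subsets were chosen after the pattern had been seen. The share of DMSO peaks with a score above the list median moved with distance as well, from 49.3% in the 200 nt behind the stop codon to 37.6% between 800 and 1600 nt.

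DMSO peaks were also less often met by a Dox peak with distance from the stop codon, as far as 3200 nt. The share of DMSO peaks overlapped by at least 1 base of a Dox peak was 67.3% (65.2 to 69.3) in the 200 nt behind the stop codon. It was 59.2% between 200 and 400 nt, 52.8% between 400 and 800 nt, 47.1% between 800 and 1600 nt and 40.1% (34.5 to 46.1) between 1600 and 3200 nt. Beyond 3200 nt it was 46.3% (34.9 to 58.1), an interval that overlaps that of the class before it. Within the lowest score quartile it went from 26.8% to 9.09% from the 200 nt behind the stop codon to the class of 1600 to 3200 nt, and within the highest from 91.9% to 77.8%. In the other direction, DMSO peaks overlapped 95.0%, 94.2%, 94.5%, 91.2% and 90.1% of the Dox peaks in these classes.

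**Figure D3:**
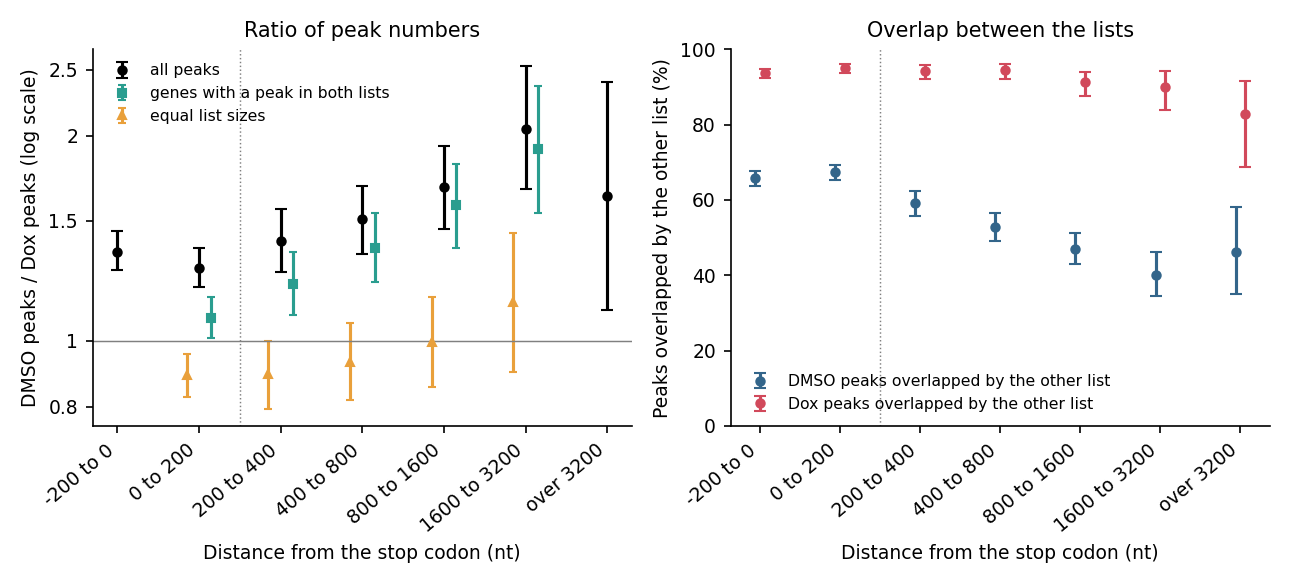
Left, number of DMSO peaks over number of Dox peaks (log axis) by distance from the stop codon, for all peaks (black), for genes with a peak in both lists (green squares) and with equally long lists (orange triangles). Right, share of DMSO (blue) and Dox (red) peaks overlapped by the other list. Bars are 95% counting intervals and the dotted line is the 200 nt limit; the ratio goes up and the overlap of DMSO peaks down as far as 3200 nt.

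Over all distances, 1164 of the 2433 DMSO distal peaks had no overlapping Dox peak, where 43.0% of all DMSO peaks had none. The overlapped share was 52.2% (50.2 to 54.1), below that of peaks within 200 nt of the stop codon (difference -14.3 points, -16.7 to -11.8) and of coding sequence peaks (difference -2.92 points, -5.11 to -0.724). Overlap depends strongly on score. Within score quartiles the difference from the stop codon was -11.4, -7.83, -9.15 and -2.80 points from the lowest to the highest, and the last interval included 0 (-6.83 to 0.783). Against coding sequence the sign turned in the 3 upper quartiles (6.76, 4.13 and 6.93 points, the middle one with an interval from -0.0421 to 8.10). Only 109 of the 1568 Dox distal peaks had no DMSO partner, where 7.31% of all Dox peaks had none, and the share with a partner was 93.0% (91.7 to 94.2). The partner was nearly always distal itself, for 1236 of the 1269 overlapped DMSO members and 1366 of the 1459 overlapped Dox members.

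**Figure D4:**
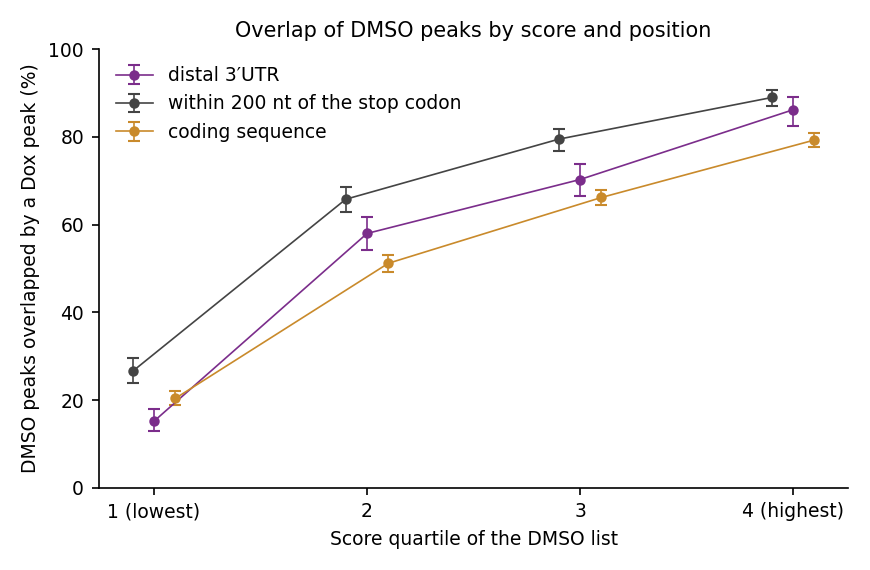
Share of DMSO peaks overlapped by a Dox peak (y axis) in the 4 score quartiles of the DMSO list (x axis), for distal 3′UTR peaks (purple), peaks within 200 nt of the stop codon (grey) and coding sequence peaks (brown), with 95% counting intervals. In every group overlap goes up with score, and distal peaks lie below the stop codon group in the 3 lower quartiles.

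Peaks found in 1 list only were short and weak. DMSO-only distal peaks were 50 nt long at the median and scored 10.8, against 200 nt and 11.9 for those with a Dox partner, and they lay farther from the stop codon (654 against 508 nt). Dox-only ones had 25 nt, 10.6 and 676 nt, against 125 nt, 11.4 and 501 nt. Most DMSO-only distal peaks were in transcripts that kept some other Dox peak. Of the 1164, 77.7% (75.3 to 80.0) were in a gene with a Dox peak somewhere, 49.7% in one with a Dox peak at the stop codon and 38.8% in one with another distal Dox peak. Of DMSO-only peaks within 200 nt of the stop codon 51.9% (49.3 to 54.6) were in a gene with a Dox peak, and of DMSO-only coding sequence peaks 77.5% (76.3 to 78.6), close to the distal share. At matched lengths of 75 to 150 nt, GGAC was in 52.7% of DMSO-only distal peaks (48.2 to 57.2; windows 31.4%) and in 61.1% of overlapped ones (56.1 to 65.8; windows 34.7%).

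Where peaks of both lists met, the DMSO peak was the wider one. In 1072 pairs each distal peak met no further peak, and the DMSO peak was longer in 772 of them (72.0%, where it was 68.9% of such pairs at all positions). The Dox peak was longer in 109 and the lengths were equal in 191, and the DMSO median was 175 nt where the Dox median was 125 nt. The DMSO peak extended farther on the 5′ side in 622 pairs (Dox in 106) and farther on the 3′ side in 589 (Dox in 67). Of the overlapped DMSO distal peaks 12.1% met more than 1 Dox peak, while 1.51% of the overlapped Dox distal peaks met more than 1 DMSO peak.

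By genes, 1613 of the 5819 genes with a DMSO peak on their chosen transcript had a distal one (27.7%), and 1111 of 4677 in Dox (23.8%). Both lists had a distal peak in 1018 genes. Of the DMSO genes 595 (36.9%) had no distal Dox peak, 373 of these having a Dox peak elsewhere and 222 none at all. Of the Dox genes 93 (8.37%) had no distal DMSO peak, and 15 of these had no DMSO peak at all. For peaks at any position, 4531 genes were in both lists, out of the 5819 DMSO and the 4677 Dox genes. The share of genes with a distal peak was 14.6% in DMSO where the distal 3′UTR was shorter than 500 nt and between 36.5% and 40.1% in all longer classes, while peak density fell from 0.677 per kb in the shortest class to 0.130 per kb above 4000 nt. A single distal peak was found in 68.0% of the DMSO and 72.1% of the Dox genes, and 4 or more in 68 and 31 genes.

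The genes with most distal DMSO peaks differed in how many of these a Dox peak overlapped. Lrrc58 had 9 in DMSO over 394 to 3007 nt of a 7396-nt 3′UTR, and 1 in Dox, at 382 nt, which overlapped the DMSO peak nearest the stop codon and no other. Zfp704, a zinc-finger gene, had 9 in DMSO, 2 of them overlapped, and 3 in Dox, of which the one at 3545 nt (score 12.7) met a DMSO peak at 3507 nt (12.6). Hunk, a kinase gene, had 7 in DMSO, 4 of them overlapped, and 6 in Dox, the DMSO ones lying 393 to 2405 nt and the Dox ones 468 to 2393 nt from the stop codon. Overlap was found for 2 of the 7 DMSO peaks of Slfn9, 2 of the 6 of Oxsr1 and 0 of the 6 of Zcchc14, whose scores of 10.1 to 10.6 were close to the lowest of the list. It was found for 5 of the 6 of Atg4d, 5 of the 6 of Gm38394 and all 5 of Larp1. Of the DMSO peaks of Slfn9, 5 lay in repeats and 2 had near-identical loci elsewhere, and 2 of those of Oxsr1 lay in repeats.

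In the Dox list, Peg10, an imprinted gene of retrotransposon origin, had 6 distal peaks, 4 of them overlapped by a DMSO peak. All were overlapped in the lipid kinase gene Pip4k2b (6 in Dox, 4 in DMSO), the tyrosine kinase gene Syk (6 and 3), and Nol9 and the hedgehog factor gene Gli2 (5 and 3 each). AC124502.3 had 5, of which 4 were overlapped. Marveld1 had 6 and Tmem72 had 5, and neither had a DMSO peak anywhere on its transcript. The 6 of Marveld1 lay at 256, 394, 731, 994, 1656 and 2081 nt of a 2295-nt 3′UTR, with scores up to 12.3, no near-identical locus and GGAC in 3 of them. The 5 of Tmem72 lay 4216 to 6591 nt from the stop codon, all in repeats, and each had 469 to 677 near-identical loci elsewhere, so they cannot be assigned to Tmem72. Over 100 near-identical loci were found for 6 of the 109 Dox-only members (5.50%, 2.55 to 11.5), 3 of the 1164 DMSO-only members (0.258%) and 0 of the 1269 overlapped DMSO members.

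Besides those of Tmem72, the best-scoring Dox-only distal peaks were at Gm4981 (chr10:58235123-58235322, minus strand, score 16.4), Tmem92 and Lmtk2 (12.4; 25 nt). Gm4981 lies beside Duxf3 on the same strand of chromosome 10, the latter spanning 58230651 to 58232675, and its peak of 200 nt held GGAC 5 times. The Tmem92 peak covered 650 nt, with GGAC 5 times and a score of 12.8. Tmem92 is a 2C gene, and it was the only gene of the 2C list with a distal peak. In the Dox list 15 of these genes had any peak (6.67% with a distal one, where it was 23.8% of all genes), and in the DMSO list 4. The annotated transcript of Duxf3 has a 3′UTR of 0 nt, so no peak could be distal in it. The same goes for Usp17lb and Tdpoz3 (0 nt), and for Zscan4b, Tcstv3, Tcstv1 and Zscan4f (57, 102, 112 and 129 nt). Usp17la, Usp17lc and Zscan4c (897, 743 and 551 nt) had room for a distal peak and none was found there. The same was seen for Zscan4d, Zfp352 and Usp17ld (547, 422 and 349 nt).

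Best-scoring DMSO-only distal peaks were those of the histone chaperone gene Nap1l1 (18.5), Homer3 (18.4), Snapc3 (18.4), Hjurp, which loads the centromeric histone CENP-A (17.4), and the splicing factor gene Hnrnpa1 (17.2). Those of Nap1l1, Homer3 and Snapc3 were 25 to 50 nt long without any DRACH. The peaks of Hjurp and Hnrnpa1 held GGACT.

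Pluripotency genes were the list with the highest share of genes carrying distal peaks, and all of those in DMSO had one in Dox as well. Of 20 genes with a DMSO peak 10 had a distal one (50%, where it was 27.7% of all genes), and of 19 with a Dox peak 11 (57.9%, where it was 23.8%). The length of the distal 3′UTR, with which this share goes as given above, was not matched for this or any other gene list. All 10 DMSO genes were among the Dox genes, where 36.9% of all genes with a distal DMSO peak had no distal Dox peak. Nanog had 1 distal peak in each list, at 122714417 to 122714616 (963 nt, score 15.0) in DMSO and 122714417 to 122714591 (951 nt, score 17.8) in Dox, at percentiles 89.3 and 96.1 of the lists. The Dox peak had 1 near-identical locus elsewhere. Klf5 had 1 in each list at 1233 nt, with 150 nt and a score of 14.3 in DMSO and 100 nt and 11.3 in Dox.

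Esrrb, a nuclear receptor gene of naive pluripotency, had a single DMSO peak of 900 nt that filled the end of its 2560-nt 3′UTR (score 13.6). The Dox list had 3 peaks of 100, 175 and 500 nt (11.6, 11.5 and 11.7) in the same stretch. Sall4 had 2 peaks of 400 nt each in DMSO (12.1 and 13.5) and 4 of 25 to 325 nt in Dox (11.3 to 15.4), also in the same stretch. Tdgf1, the Nodal coreceptor gene, had a DMSO peak of 475 nt (13.4) and a Dox peak of 450 nt (13.6), and Fgf4 had one of 725 nt (11.8) in DMSO and one of 575 nt (17.2) in Dox. For Lin28a, Dppa4 and Nr5a2 the Dox peak was the shorter one as well (125 against 175, 100 against 125 and 75 against 150 nt). Klf4 had a 25-nt distal peak in Dox only (12.6), with near-identical loci elsewhere, and a DMSO peak with its middle outside the distal 3′UTR (13) overlapped it.

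Tfcp2l1, a factor of the same naive network, had most of its DMSO-only peaks far from the stop codon. Its peak at 861 nt of a 7734-nt 3′UTR (score 14.7) had a Dox partner at 873 nt (13.2). The DMSO list had 4 more at 4686, 4948, 5936 and 6861 nt, with scores of 12.4, 11.2, 12.6 and 11.4 and lengths of 25 to 125 nt, and the Dox list had none of them. The middle base of the one at 5936 nt lay in a repeat.

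Genes of proteins that act on 3′UTRs themselves had distal peaks in 13 of 28 genes with a DMSO peak (46.4%, where it was 27.7% of all genes). With a Dox peak it was 9 of 25 (36.0%, where it was 23.8% of all genes), and 9 were in both. Ago2, the slicing Argonaute, had 5 in DMSO at 667, 1067, 1367, 3054 and 9542 nt of an 11064-nt 3′UTR, with scores of 14.0, 12, 17.0, 15.6 and 10.9. The first 4 had Dox partners at 667, 1054, 1367 and 3067 nt with scores of 11, 10.8, 11.6 and 13.5, and the last, a 50-nt peak, had none. Trim71, the let-7 target that represses mRNAs in ESCs, had 3 in DMSO and 1 in Dox, and the one both lists had was the best of them and lay over 4000 nt away (4290 nt, 15.1; 4302 nt, 13.7). Khsrp and Zfp36l1, which bind AU-rich elements, had 3 and 2 in DMSO and 1 each in Dox. For Khsrp the best DMSO peak (15.2, at 1170 nt) was among those the Dox list lacked, and for Zfp36l1 the one at 1538 nt (13.3) was. Elavl1, Dicer1, Cnot9 and Ago1 had 1 in DMSO and none in Dox, with scores of 12.2, 11.9, 11.2 and 11.8.

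Of the m6A machinery only Fto, an eraser, and Igf2bp1 and Igf2bp2, readers, had distal peaks. These were 3 of 15 genes with a DMSO peak (20%, where it was 27.7% of all genes) and 1 of 16 with a Dox peak (6.25%, where it was 23.8%). Igf2bp2 had its peak in both lists at 1074 nt (13.1 and 12.2). The 2 peaks of Fto (10.3 and 10.9) and the 2 of Igf2bp1 (10.2 and 10.1) were in DMSO only, at percentile 24.6 of the list or below.

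Signalling genes had distal peaks in 15 of 32 genes with a DMSO peak (46.9%, where it was 27.7% of all genes). With a Dox peak it was 10 of 27 (37.0%, where it was 23.8% of all genes), and 9 were in both. Il6st, the gp130 receptor subunit of the LIF pathway, had 5 in DMSO, at 257, 1082, 1882, 1982 and 2119 nt, and 1 in Dox at 794 nt that lay within the first, a DMSO peak of 1375 nt. Grb2, an adaptor of receptor tyrosine kinases, had 3 in DMSO (11.8, 11.1 and 10.8) and none in Dox. Ctnnb1, the beta-catenin gene, had 1 at 442 nt in both (13 and 13.8), Socs3 1 in both (12.3 and 13.8), and Nodal 1 in both (10.8 and 12.6). Lifr had 1 in Dox only (12.5), which a DMSO peak (17.9) with its middle outside the distal 3′UTR overlapped.

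Chromatin regulators were lower, with 7 of 29 genes in DMSO (24.1%) and 3 of 23 in Dox (13%), where all genes gave 27.7% and 23.8%. Jarid2, of the Polycomb complex PRC2, had 3 in DMSO (11.9, 10.5 and 11.7) and none in Dox, while Cbx7 of PRC1 had 3 and 2. The DMSO peak of Tet2, a 5-methylcytosine oxidase gene, 2173 nt from the stop codon (score 15.1) had no Dox partner, and its Dox peak at 336 nt (11.2) lay within a longer DMSO peak of 2175 nt with its middle in the coding sequence. Cell cycle and Myc genes had 4 of 16 in DMSO (25%) and 4 of 14 in Dox (28.6%), with E2f3 (11.7 and 12.4) and Trp53 (12.5 and 10.7) in both, Ccnd1 and Ccna2 in DMSO only, and Mycn and Ccne1 in Dox only. Both of the last had a DMSO peak over the same place with its middle outside the distal 3′UTR. The lists are small, were chosen with results of these data known, and show nothing particular to a list.

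**Figure D5:**
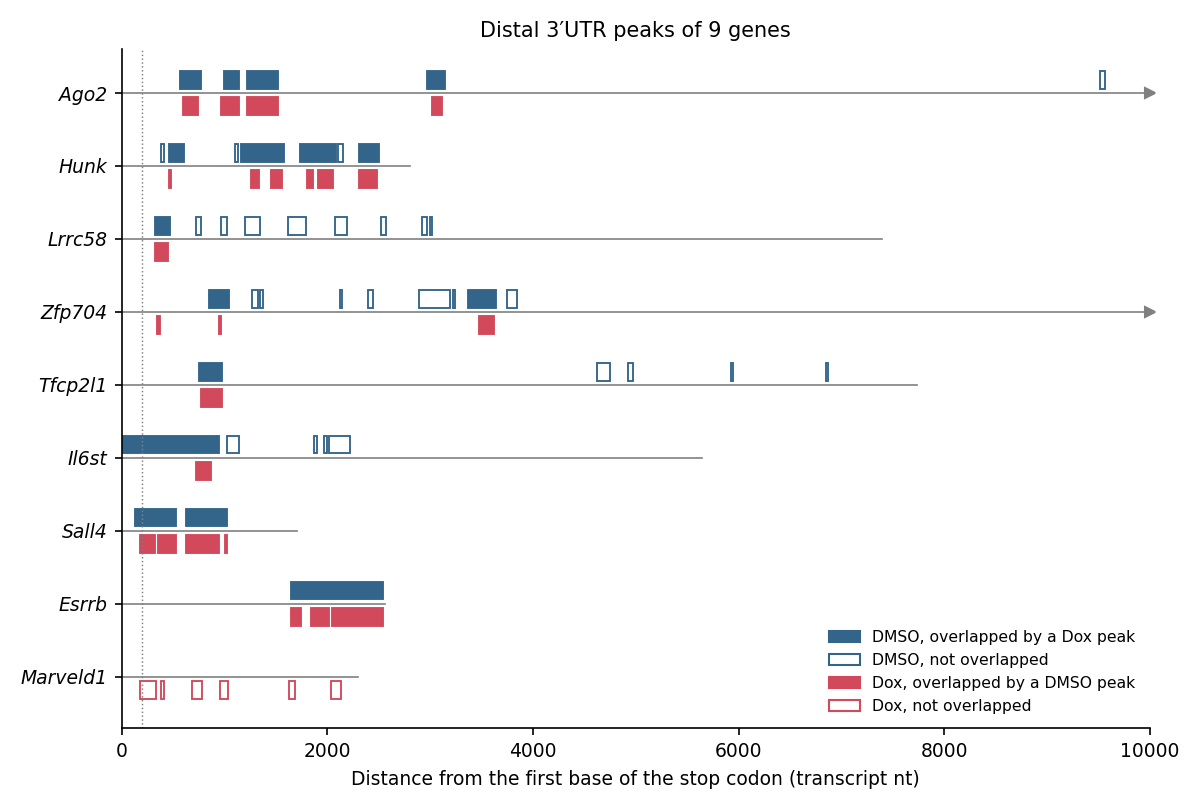
Distal 3′UTR peaks of 9 genes named in the text, drawn to scale by distance from the first base of the stop codon (x axis, transcript nt) above the line for DMSO (blue) and below it for Dox (red), filled where a peak of the other list overlaps and open where none does, peaks of 25 nt appearing as a stroke. Grey lines are the annotated 3′UTRs, arrowheads marking those that go on beyond 10000 nt. In Ago2 all but 1 of the DMSO peaks are filled, Lrrc58, Zfp704, Hunk, Tfcp2l1 and Il6st have several open DMSO peaks, and Marveld1 has Dox peaks only.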

How the data were processed

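MeRIP-seq reads were filtered by the authors with fastp 0.19.4 and aligned to mm10 with HISAT2 2.2.1, and exomePeak2 gave the peaks. Its version and settings, and how replicates were combined, are not given in the sources used here. The deposited score was taken as −log10 p from its values (lowest 10.0), since the column is not named; read counts and depth are unknown. Each peak list was the only value per treatment, and no column was left unused.

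Peaks were placed on GENCODE vM21 transcripts (longest coding sequence per gene) by their middle exon-block base. Overlap required 1 base on the same strand. Intervals are Wilson (shares), Newcombe (differences), Byar (densities) and, for ratios of numbers, from the Wilson interval of the share. Motifs were counted on the peak's strand and in all windows of its length in the same distal 3′UTR. Near-identical loci came from blastn 2.17.0. Python 3.11.15, numpy 2.4.6, pandas 2.3.3 and matplotlib 3.10.9 were used. Placement, overlap and motif steps were tested on simulated data. Single peaks named were the 10 best-scoring and 5 best-scoring list-only ones per list, the 3 farthest, and those next to the limit; genes named were up to 10 with most distal peaks per list and members of 7 gene lists. The distance classes, and the limit of 75 nt and a single locus, were added after the values were seen. Members and lists were chosen with earlier results of these data known. Alternatives covered the distance limit, the transcript, score, list length, overlap, motif, peak length and near-identical loci. A few peaks that the naming rule picked are not reported here.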

Additional observations from a re-analysis of the deposited data

How the results depend on the processing

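No paired analysis was possible because replicates had been combined into a single list per treatment, and for the same reason no replicate could be left out. The number of reads behind each peak is unknown, so depth cannot be separated from treatment. Of 55 alternatives over 15 results, 19 stayed within the counting interval (or within 1.5 times a count), 35 moved and 1 turned the direction. The ratio of DMSO to Dox distal peaks was 0.953 (0.888 to 1.02) with equal list sizes. This was the turn of direction, but its interval includes an even ratio, and the totals of the lists were made equal beforehand. The ratio was 1.68 for scores at or above the DMSO median. It lay between 1.48 and 1.64 for the distance limits of 100 and 400 nt, the longest transcript and unique loci. The overlapped share of DMSO distal peaks was 42.3% with 50% of the peak required in the other list and 38.3% with 50% of both, 48.5% from 400 nt on, 76.9% among the top-scoring 50% of the list and 72.0% with equal list sizes. The Dox share was 59.6% with 50% of both, 97.3% among the top-scoring 50% of the list and 81.2% with equal list sizes. The density ratio of stop codon to distal 3′UTR was 5.58 in DMSO over transcripts with a peak in both lists, 6.24 (DMSO) and 7.64 (Dox) at 400 nt, 5.62 and 6.39 on the longest transcript, and 7.38 and 8.78 for scores at or above the DMSO median. The motif share was 86.2% (DMSO) and 88.1% (Dox) for DRACH, 28.2% and 29.0% for GGACT, 67.2% and 70.3% for GGAC among the top-scoring 50% of the list, and 60.3% for Dox peaks of 75 to 150 nt. The median relative position in the distal 3′UTR, 0.286 in DMSO and 0.259 in Dox, was 0.314 and 0.283 on the longest transcript and 0.260 and 0.222 in distal 3′UTRs of at least 1000 nt. Genes with a distal peak in both lists numbered 383 at scores at or above the DMSO median. Genes with one in DMSO only numbered 252 with equal list sizes and 222 where no Dox peak of any position was allowed; in Dox only they numbered 216 with equal list sizes, 145 at that score and 15 without any DMSO peak. Among alternatives added after seeing the data, the ratio between 1600 and 3200 nt was 2.55 at that score and 1.14 with equal list sizes. The score threshold assumes a common scale of both lists, and the cause of these moves was not tested.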
